A study of Mus musculus with 6 samples.

Results

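The PDGF and FGF ligands and receptors are 10 of the 25939 genes listed for 6 RNA-seq libraries of cultured mouse aortic smooth muscle cells. They were taken by name as a set of smooth muscle mitogens and their receptors: the ligand genes Pdgfa, Pdgfb, Pdgfc, Pdgfd, Fgf2, Fgf7 and Fgf10 and the receptor genes Pdgfrb, Fgfr1 and Fgfr2. Of the libraries, 3 came from cells treated for 48 h with TMAO (trimethylamine N-oxide, an oxidation product that the liver makes from a gut bacterial metabolite) and 3 from Control cells. The sources used here do not state the mouse strain, sex, age or number, the passage or the TMAO dose. Whether the 3 libraries of a group came from separate animals or cultures is not given either, so p-values measure only the spread between these libraries, which may be technical.

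Platelet-derived growth factors are secreted as disulfide-linked dimers and drive the migration and proliferation of smooth muscle cells. PDGF-AA and PDGF-CC act through the alpha receptor, PDGF-DD acts mainly through the beta receptor encoded by Pdgfrb, and PDGF-BB binds both. FGF2 is a heparin-binding growth factor released without a signal peptide that signals in smooth muscle mainly through FGFR1, whereas FGF7 and FGF10 are made by mesenchymal cells and act on the epithelial splice form of FGFR2.

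None of the 8 tested members passed the test for a difference between TMAO and Control cells, and Pdgfb and Fgfr2 were too low to be tested. Pdgfrb, Fgf7 and Pdgfd were the most abundant members in both groups, at mean levels between 25.98 and 40.06 FPKM (fragments counted per kilobase of exon and scaled to the library total). Pdgfb was at the limit of detection, with 0 to 3 reads per library, and Fgfr2 was low, with 35 to 47 reads. The 3 TMAO libraries lay below all 3 Control libraries for Pdgfd, Fgf7 and Fgf10, without passing correction for the genes tested. Of the 11062 genes tested 6.23% had such an order and 12.4% the opposite one. Fgfr2, which was not among them, had the opposite order in FPKM. Fgf2, Pdgfa, Pdgfc and Fgfr1 overlapped between the groups and had intervals of the difference on both sides of 0.

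The upstream sequences of Pdgfd, Fgf7 and Fgf10 are shown because these are the members whose libraries did not overlap between the groups with lower levels in TMAO, and that of Fgf2 is shown as a member whose libraries overlapped fully. Each is the 250 bases before the start site in RefSeq on GRCm38.p6, the assembly of mm10, written 5' to 3' along the gene in lower case, with every match to the motifs named after them in capitals.
Pdgfd (chr9:6168236-6168485, plus strand): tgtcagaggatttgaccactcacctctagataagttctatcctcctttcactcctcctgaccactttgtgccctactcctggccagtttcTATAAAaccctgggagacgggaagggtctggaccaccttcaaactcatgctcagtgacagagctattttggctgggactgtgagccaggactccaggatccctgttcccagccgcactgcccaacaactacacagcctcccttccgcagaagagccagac
Fgf7 (chr2:126034408-126034657, plus strand): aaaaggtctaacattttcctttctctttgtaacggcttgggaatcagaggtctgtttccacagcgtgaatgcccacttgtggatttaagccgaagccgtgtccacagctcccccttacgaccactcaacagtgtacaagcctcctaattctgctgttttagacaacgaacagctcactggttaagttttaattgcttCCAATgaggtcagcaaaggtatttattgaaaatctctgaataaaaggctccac
Fgf10 (chr13:118714449-118714698, plus strand): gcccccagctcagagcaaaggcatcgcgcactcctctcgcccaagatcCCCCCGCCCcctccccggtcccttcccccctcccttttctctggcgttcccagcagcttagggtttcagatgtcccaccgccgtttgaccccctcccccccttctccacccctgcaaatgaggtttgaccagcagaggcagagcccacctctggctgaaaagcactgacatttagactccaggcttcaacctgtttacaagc
Fgf2 (chr3:37348403-37348652, plus strand): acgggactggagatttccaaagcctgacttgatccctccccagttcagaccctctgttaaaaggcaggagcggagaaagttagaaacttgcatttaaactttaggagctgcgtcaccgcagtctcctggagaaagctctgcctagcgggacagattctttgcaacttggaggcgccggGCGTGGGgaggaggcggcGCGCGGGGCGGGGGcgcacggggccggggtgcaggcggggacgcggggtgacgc

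The motifs searched on both strands were the TATA box TATAAA, the CCAAT box CCAAT, the GC box GGGCGG, the AP-1 site TGANTCA, the Egr motif GCGNGGG, which can overlap a GC box, and the CArG box of serum response factor. The Pdgfd window held a TATA box at -160 to -155 from the start site, and 12.4% of the 32851 promoter windows of this length held that motif. The Fgf7 window, with 43.6% G and C, held only a CCAAT box (33.8% of all windows). The Fgf10 window held a GC box (32.7% of all windows) overlapping an Egr motif (20.3%), both on the opposite strand. The Fgf2 window, with 62.4% G and C, held 3 Egr motifs, of which those nearest the start site overlapped its GC box. Outside the printed sequences, the Pdgfc window held a CArG box at -17 to -8, a motif found in 1.47% of all windows, and no printed window held an AP-1 site (6.75%). The RefSeq start of Fgf7 is the start of the gene in GENCODE M21, and that of Fgf10 lies 44908 bases inside the longer GENCODE gene. From the GENCODE gene start, the RefSeq start lies at -98 bases for Pdgfd, before the gene, and at 307 bases for Fgf2, inside it. The printed windows of Fgf10 and Fgf2, with their motifs, thus lie within the GENCODE genes and not upstream of them. These matches are descriptions of the letters and were not tied to the expression values.

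Read depth was similar in all libraries, with totals implied by the FPKM values between 14991252 and 16806728 reads. The share of reads from the mitochondrial genome was 6.47% to 6.76% in TMAO and 7.39% to 7.96% in Control, and the nuclear RNA Malat1 had 153 to 218 FPKM in TMAO and 75.0 to 113 FPKM in Control. The smooth muscle marker genes Acta2 and Myl9 were high (476 to 493 FPKM for Acta2 and 92.9 to 99.6 FPKM for Myl9 over the 6 libraries), whereas Tagln, Cnn1 and Myh11, which define the contractile state, stayed under 1 FPKM in all 6. Of the smooth muscle markers 0 of 5 tested genes passed, and their summed level was 578 to 596 FPKM in TMAO and 593 to 597 FPKM in Control. Fibroblast markers (5 of 6 tested, 0 past the threshold) summed to 593 to 613 FPKM in TMAO and 624 to 636 FPKM in Control. Most of that sum came from Ly6a and Col1a1, with means of 412 and 174 FPKM over the 6 libraries. Of the endothelial markers only Emcn was tested (1 of 6, limma adjusted p = 0.0504), and the list summed to 12.5 to 13.1 FPKM in TMAO and 15.5 to 16.8 FPKM in Control, while Pecam1, Cdh5 and Vwf stayed under 0.1 FPKM in every library. Macrophage markers (3 of 6 tested) summed to 76.0 to 83.9 FPKM in TMAO and 78.9 to 97.6 FPKM in Control, mostly from Lyz2, with Ptprc under 0.06 FPKM. The pericyte, mesothelial, Schwann cell and adipocyte lists summed to at most 4.14, 5.46, 0.689 and 0.168 FPKM in any library. Of these lists 2 pericyte genes and 1 mesothelial gene were tested and did not pass, and no Schwann cell or adipocyte gene reached the filter. The part that these library-wide differences and other cell types may have in the members' values was not tested.

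The comparison asks whether TMAO changed the transcripts of this growth factor system. It used limma on log2(FPKM + 1), on the 11062 genes that reached 1 FPKM in 3 or more libraries, with Benjamini-Hochberg adjustment across them. In bulk RNA, fewer cells of a type and less RNA per cell cannot be told apart. Of the 10 members 8 passed the filter and 0 of these 8 passed an adjusted p of 0.05, where 0.181% of all tested genes did (0.0723% higher and 0.108% lower in TMAO). At an unadjusted p of 0.05, 3 of 8 members lay below it, all lower in TMAO, against 13.1% of all tested genes in either direction and 4.48% lower in TMAO. The libraries did not overlap, with TMAO lower, for 3 of the 8 members and for 6.23% of all tested genes, and with TMAO higher for 0 of the 8 and 12.4% of all tested genes. The median log2 fold change of the 8 members was -0.098, against 0.025 for all tested genes. On this scale a fold change understates the change of low genes.

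**Figure D1:**
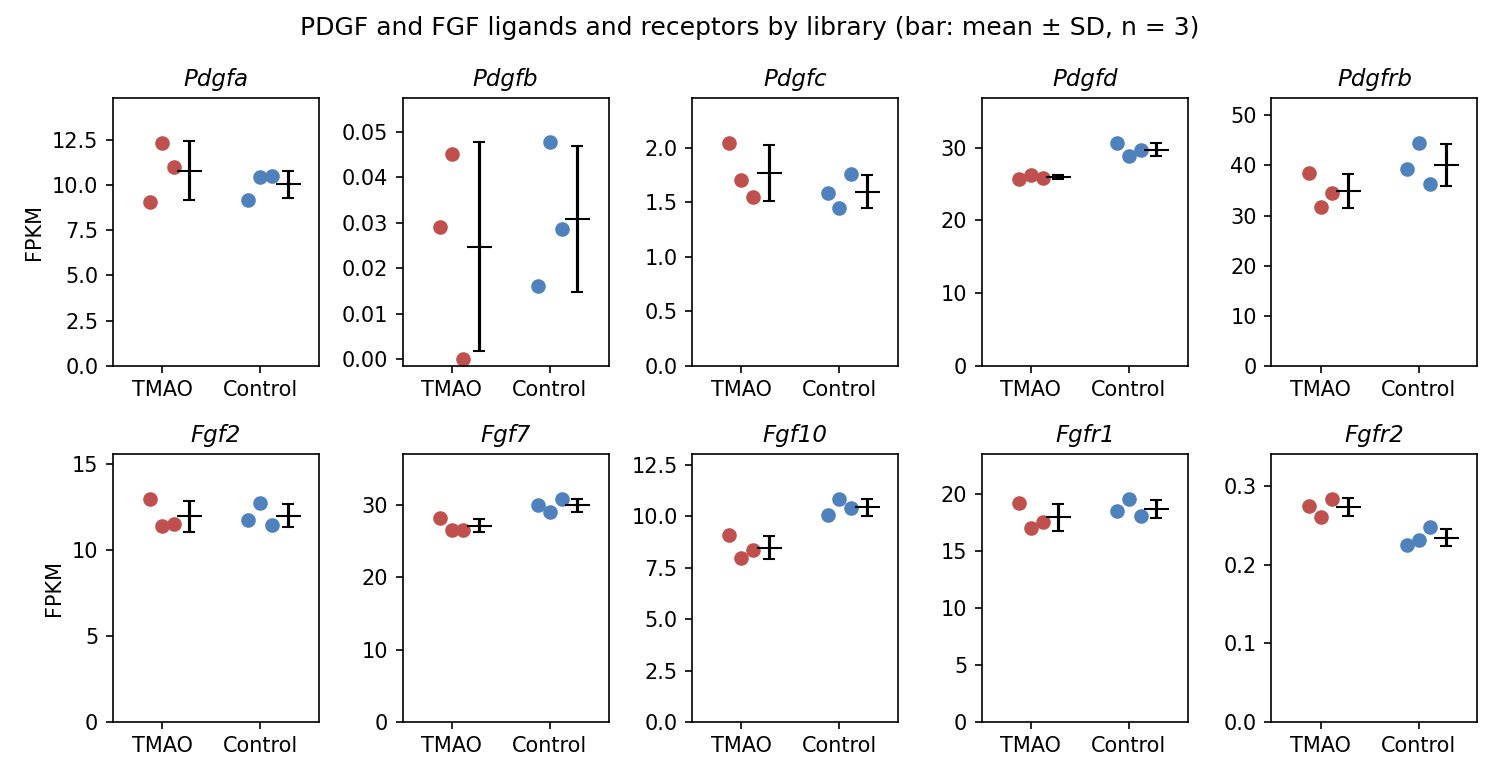
Level of each member in FPKM (y axis, starting at 0 except for Pdgfb, whose axis starts just below 0 so that a library listed at 0 can be seen) in the 3 TMAO and 3 Control libraries; points are libraries and the bar beside them is the mean ± SD. TMAO lies below Control without overlap for Pdgfd, Fgf7 and Fgf10, above it for the scarce Fgfr2, and overlaps it for the other members.

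Among the PDGF ligands, Pdgfd, which codes for the latent ligand PDGF-D, was the most abundant in every library. Pdgfd (ENSMUSG00000032006, chromosome 9, 6168584 to 6378850, plus strand of mm10) had 25.7, 26.3 and 25.9 FPKM in TMAO 1 to 3, against 30.7, 28.9 and 29.7 FPKM in Control 1 to 3. All TMAO libraries were below all Control libraries, and they were tightly grouped. The means were 25.98 ± 0.301 FPKM in TMAO and 29.8 ± 0.935 FPKM in Control (SD, n = 3 each), with a log2 fold change of -0.19 ± 0.047 (SE), a 95% interval of -0.29 to -0.086 and a limma adjusted p = 0.142. These values rest on 1225 to 1341 reads in the TMAO libraries and 1371 to 1576 reads in the Control libraries, and the counting error alone would give a coefficient of variation of 2.78% in TMAO and 2.61% in Control, against observed ones of 1.16% and 3.14%. No exon of another gene overlaps the exons of Pdgfd in the annotation.

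Pdgfa (ENSMUSG00000025856, chromosome 5, 138976014 to 138997370, minus strand), the gene of the PDGF A chain, varied most within a group among the ligands with over 100 reads. It had 9.08, 12.4 and 10.99 FPKM in TMAO 1 to 3, against 9.20, 10.4 and 10.5 FPKM in Control 1 to 3. TMAO 1 was the lowest library of all and TMAO 2 the highest, so the groups overlapped, and the coefficient of variation was 15.2% in TMAO and 7.29% in Control where counting gives 4.33% and 4.51%. The log2 fold change was 0.089 ± 0.10 (SE, 95% interval -0.14 to 0.31, limma adjusted p = 0.762). Without TMAO 2 it was -0.0048, and without TMAO 1 it was 0.20, so its direction rests on TMAO 2. Exons of the antisense gene 6330403L08Rik cover 26.1% of the exon bases of Pdgfa, and that gene stood at 0.693 to 0.749 FPKM in TMAO and 0.787 to 0.856 FPKM in Control. The strand setting of the counting is not given, so reads of the shared bases cannot be told apart.

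Pdgfc (ENSMUSG00000028019, chromosome 3, 81036416 to 81214040, plus strand), which codes for a latent ligand of the alpha receptor, was scarcer. It had 2.05, 1.70 and 1.55 FPKM in TMAO 1 to 3, against 1.58, 1.45 and 1.75 FPKM in Control 1 to 3, with 111 to 172 reads in any library. The groups overlapped, with a log2 fold change of 0.089 ± 0.094 (SE, 95% interval -0.12 to 0.30, limma adjusted p = 0.746). It was 0.017 without TMAO 1 and 0.15 without TMAO 3, the lowest and highest values with 1 library left out. Pdgfb (ENSMUSG00000000489, chromosome 15, 79995874 to 80014977, minus strand), the gene of the PDGF B chain, which in vessels is made chiefly by endothelial cells and platelets, was at the limit of detection. It had 2, 3 and 0 reads in TMAO 1 to 3 and 1, 3 and 2 reads in Control 1 to 3. The 0 reads in TMAO 3 allow a level of up to 0.0481 FPKM, from 3 reads as the upper limit that a count of 0 allows, which covers counting error only. Pdgfb was below the filter and not tested there, and a two-sided exact permutation test of its FPKM values gave p = 0.8, where the smallest p that 3 against 3 libraries allow is 0.1.

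Taken as shares of the summed FPKM of these ligands, Pdgfd made up 69.8%, 65.1% and 67.4% in TMAO 1 to 3 and 74.0%, 70.7% and 70.8% in Control 1 to 3. The TMAO shares were all below the Control shares, by a margin of under 1 percentage point between the closest libraries. The summed level of the PDGF ligands was 36.9, 40.4 and 38.4 FPKM in TMAO 1 to 3 and 41.5, 40.8 and 42.0 FPKM in Control 1 to 3. These sums are descriptions over chosen genes and were not tested.

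Pdgfrb (ENSMUSG00000024620, chromosome 18, 61045150 to 61085061, plus strand), the gene of the beta receptor, had the highest mean level of the members in both groups and differed by more than counting error between libraries of the same group. It had 38.5, 31.7 and 34.4 FPKM in TMAO 1 to 3, against 39.3, 44.6 and 36.3 FPKM in Control 1 to 3. TMAO 1 was higher than Control 3, and Control 2 was the highest library. The means were 34.9 ± 3.39 FPKM in TMAO and 40.06 ± 4.20 FPKM in Control (SD, n = 3 each), with a log2 fold change of -0.19 ± 0.089 (SE), a 95% interval of -0.40 to 0.0098 and a limma adjusted p = 0.404. The coefficients of variation were 9.72% in TMAO and 10.5% in Control, while 2774 to 3678 reads per library would give 1.82% and 1.71% from counting. Without Control 2 or TMAO 2 the log2 fold change was -0.12 and -0.13, and without Control 3 or TMAO 1 it was -0.26 in both cases. Scaled by median-ratio size factors, the libraries of Pdgfrb no longer overlapped, with TMAO lower, whereas under quantile normalization they still overlapped.

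The alpha receptor gene Pdgfra, no member but the partner through which PDGF-A and PDGF-C act, had 25.2, 22.6 and 23.5 FPKM in TMAO 1 to 3 and 26.8, 27.6 and 25.2 FPKM in Control 1 to 3. Its lowest Control library and its highest TMAO library had nearly the same value, and its log2 fold change was -0.15 (limma adjusted p = 0.293). Under quantile and under median-ratio scaling its libraries no longer overlapped, with TMAO lower. Pdgfrb was higher than Pdgfra in every library, by a ratio of FPKM of 1.41 to 1.53 in TMAO and 1.44 to 1.61 in Control. Within each group Pdgfrb, Pdgfra, Fgfr1 and Fgf2 had the same order of libraries, highest in TMAO 1 and lowest in TMAO 2 among the TMAO libraries, and highest in Control 2 and lowest in Control 3 among the Control libraries.

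**Figure D2:**
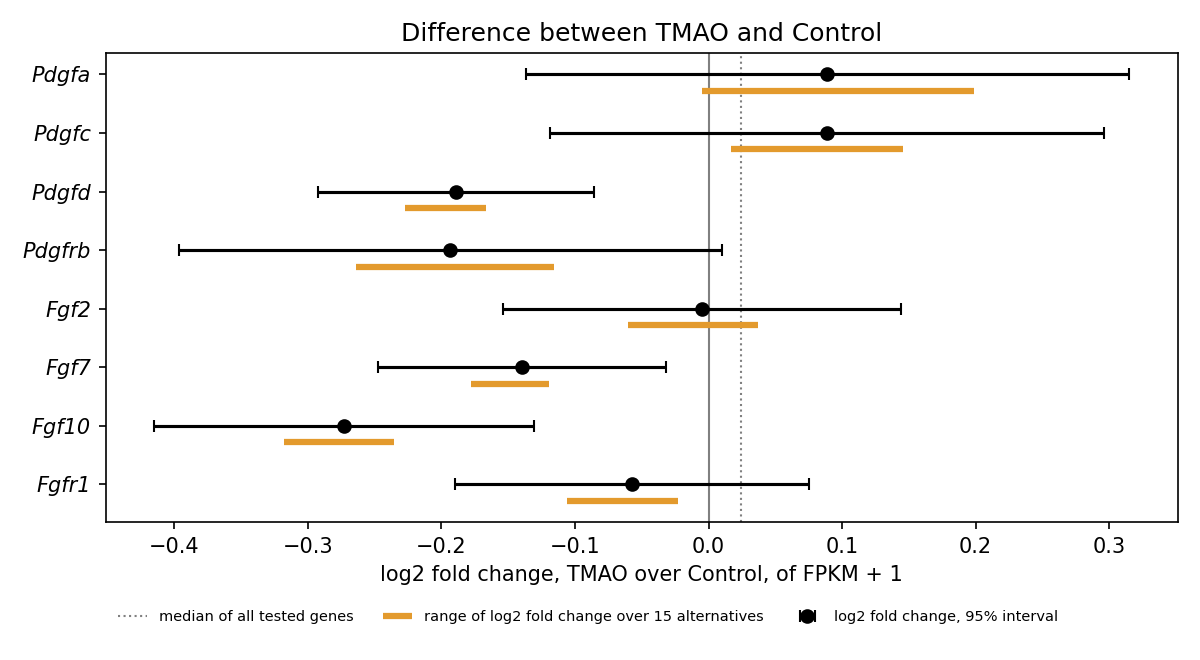
Log2 fold change of TMAO over Control for the 8 tested members (x axis, on the scale of log2(FPKM + 1)), with its 95% interval in black and, in orange, its range over 15 alternative analyses; the dotted line is the median of all tested genes at 0.025. The intervals of Pdgfd, Fgf7 and Fgf10 lie below 0 before correction for the number of genes tested, and those of the other members reach both sides of 0.

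Among the FGF ligands that are members, Fgf7 was the most abundant and Fgf10 had the log2 fold change furthest from 0. Fgf10 (ENSMUSG00000021732, chromosome 13, 118669791 to 118792115, plus strand) had 9.08, 7.98 and 8.37 FPKM in TMAO 1 to 3, against 10.04, 10.8 and 10.4 FPKM in Control 1 to 3. The highest TMAO library was about 1 FPKM below the lowest Control library. The means were 8.47 ± 0.554 FPKM in TMAO and 10.4 ± 0.402 FPKM in Control (SD, n = 3 each), with a log2 fold change of -0.27 ± 0.064 (SE), a 95% interval of -0.42 to -0.13 and a limma adjusted p = 0.131. By unadjusted p it was number 126 of the 11062 tested genes. With voom on the recovered reads, 577 to 690 in TMAO and 694 to 806 in Control, the adjusted p was 0.0537, the lowest of 15 alternatives, and the highest was 0.428 with no filter on low values. Exons of the antisense gene Gm16263 overlap 2.67% of the exon bases of Fgf10, and that gene had 3.01, 3.12 and 2.52 FPKM in TMAO 1 to 3 and 1.86, 2.25 and 4.03 FPKM in Control 1 to 3, with overlapping groups.

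Fgf7 (ENSMUSG00000027208, chromosome 2, 126034658 to 126091185, plus strand), the keratinocyte growth factor gene, had 28.2, 26.6 and 26.5 FPKM in TMAO 1 to 3, against 29.9, 29.1 and 30.8 FPKM in Control 1 to 3. The groups did not overlap, and the gap between TMAO 1 and Control 2 was about 1 FPKM. The means were 27.1 ± 0.922 FPKM in TMAO and 29.9 ± 0.875 FPKM in Control (SD, n = 3 each), with a log2 fold change of -0.14 ± 0.049 (SE), a 95% interval of -0.25 to -0.032 and a limma adjusted p = 0.26. The ratio of Fgf7 to Fgf10 was 3.10, 3.33 and 3.17 in TMAO 1 to 3 and 2.98, 2.68 and 2.96 in Control 1 to 3, higher in every TMAO library than in any Control library.

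Fgf2 (ENSMUSG00000037225, chromosome 3, 37348346 to 37410108, plus strand), the basic FGF gene, had 12.99, 11.4 and 11.5 FPKM in TMAO 1 to 3, against 11.8, 12.8 and 11.5 FPKM in Control 1 to 3. The libraries of the groups were interleaved, and the means were 11.97 ± 0.885 FPKM in TMAO and 12.01 ± 0.681 FPKM in Control (SD, n = 3 each). The log2 fold change was -0.0049 ± 0.067 (SE, limma adjusted p = 0.982), with a 95% interval of -0.15 to 0.14, which corresponds to -10.1% to 10.5%. Its sign turned when Control 2, TMAO 2 or TMAO 3 was left out (0.037, 0.027 and 0.019). The processed transcript gene Gm43439 shares 3.76% of the exon bases of Fgf2 on the same strand. Nudt6, the antisense partner of Fgf2 whose exons cover 9.44% of the exon bases of Fgf2, had 1.26, 1.05 and 0.955 FPKM in TMAO 1 to 3 and 1.07, 1.15 and 0.532 FPKM in Control 1 to 3 (log2 fold change 0.14, limma adjusted p = 0.721).

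**Figure D3:**
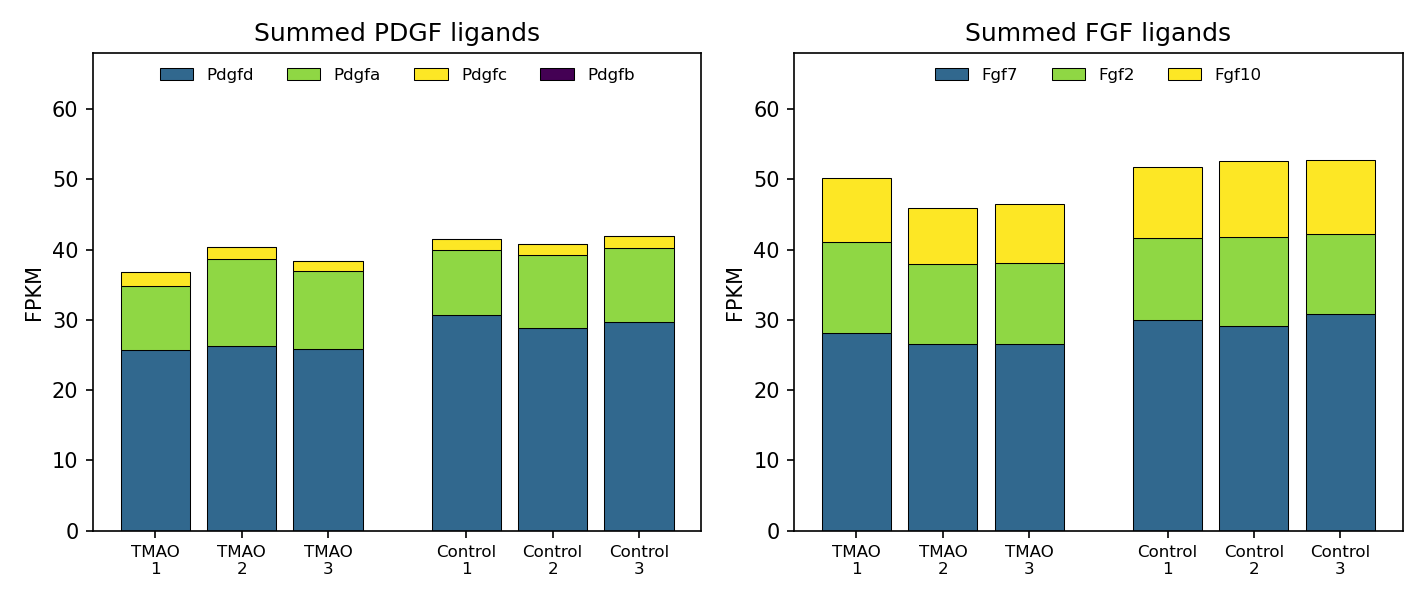
Level of each ligand in FPKM (y axis), stacked within each of the 3 TMAO and 3 Control libraries, for the PDGF ligands on the left and the FGF ligands among the members on the right. Pdgfd and Fgf7 make up most of each stack, Pdgfb is too low to be seen, and the 3 FGF ligands sum to 46.0 to 50.2 FPKM in TMAO and 51.8 to 52.7 FPKM in Control.

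Of the FGF receptors Fgfr1 (ENSMUSG00000031565, chromosome 8, 25513654 to 25575718, plus strand) was the main one by level. It had 19.2, 17.04 and 17.5 FPKM in TMAO 1 to 3, against 18.5, 19.6 and 18.0 FPKM in Control 1 to 3. TMAO 1 lay within the Control range and the groups overlapped. Its log2 fold change was -0.057 ± 0.06 (SE, limma adjusted p = 0.744), with a 95% interval of -0.19 to 0.076 that corresponds to -12.3% to 5.38%, on 2597 to 3141 reads per library. With 1 library left out it was between -0.11 (without TMAO 1) and -0.023 (without TMAO 2).

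Fgfr2 (ENSMUSG00000030849, chromosome 7, 130162451 to 133123350, minus strand), the receptor gene of FGF7 and FGF10 when spliced to its epithelial form, stood at 0.275, 0.261 and 0.284 FPKM in TMAO 1 to 3 and at 0.226, 0.231 and 0.248 FPKM in Control 1 to 3. All TMAO libraries were above all Control libraries in FPKM, although TMAO 2 and Control 3 both had 43 reads. Its counts were 47, 43 and 44 reads in TMAO 1 to 3 and 35, 36 and 43 reads in Control 1 to 3, and counting alone gives a coefficient of variation of 14.96% in TMAO and 16.2% in Control, above the observed ones. The gene was below the filter, and a two-sided exact permutation test gave p = 0.1, the smallest that the design allows. With a filter of 0.1 FPKM its log2 fold change was 0.044 (limma adjusted p = 0.84). Under quantile normalization its libraries overlapped, whereas under median-ratio scaling they did not, with TMAO higher. The annotated gene spans many other genes and shares 314 exon bases with Ctbp2 on the same strand, so its level is uncertain, and the tables give 1 value per gene and cannot separate its splice forms. Fgfr1 was higher than Fgfr2 by a ratio of FPKM of 61.7 to 69.9 in TMAO and 72.8 to 84.6 in Control.

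In the order of mean levels, Pdgfrb came first in both groups, followed by Fgf7 and Pdgfd. Fgf7 and Pdgfd had overlapping values in Control. In TMAO the lowest Fgf7 library, at 26.5 FPKM, was just above the highest Pdgfd library, at 26.3 FPKM. Counting error alone gives a coefficient of variation of 2.68% for Fgf7 and 2.78% for Pdgfd in TMAO. Fgfr1 followed, above Fgf2 in every library. Fgf2 overlapped Pdgfa in TMAO and lay above both Fgf10 and Pdgfa in Control, where these overlapped each other. In TMAO the highest Fgf10 library, at 9.075 FPKM, was just under the lowest Pdgfa library, at 9.080 FPKM. Pdgfc, Fgfr2 and Pdgfb came last, each above the next in all libraries.

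Among 31 receptor tyrosine kinase genes listed in the tables, ranked by mean FPKM over all libraries, Pdgfrb was number 3 and Fgfr1 number 6. Pdgfrb stood between Ryk, a Wnt co-receptor gene (41.3 ± 1.86 FPKM in TMAO and 39.3 ± 0.947 FPKM in Control; SD, n = 3 each), and the collagen receptor gene Ddr2 (30.8 ± 3.15 FPKM in TMAO and 29.8 ± 1.95 FPKM in Control). Its values overlapped those of Ryk in Control and lay below all of them in TMAO. Fgfr1 stood between Pdgfra and the Wnt receptor gene Ror1 (8.12 ± 0.452 FPKM in TMAO and 8.05 ± 0.637 FPKM in Control). Fgfr2 was number 23, between the CSF-1 receptor gene Csf1r (0.716 ± 0.0657 FPKM in TMAO and 0.821 ± 0.218 FPKM in Control) and the VEGF receptor gene Kdr (0.145 ± 0.0189 FPKM in TMAO and 0.165 ± 0.00891 FPKM in Control). Of the other receptor tyrosine kinases 18 of 28 listed genes were tested and 0 passed. Their median log2 fold change was -0.085, and the smallest p-values belonged to the TAM receptor gene Axl (-0.20, limma adjusted p = 0.228), the collagen receptor gene Ddr1 (-0.22, limma adjusted p = 0.26) and Pdgfra. Of these 18 tested kinase genes 5 had all TMAO libraries below all Control libraries, against 6.23% of all tested genes. With TMAO above, there were 0 of the 18, against 12.4% of all tested genes.

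**Figure D4:**
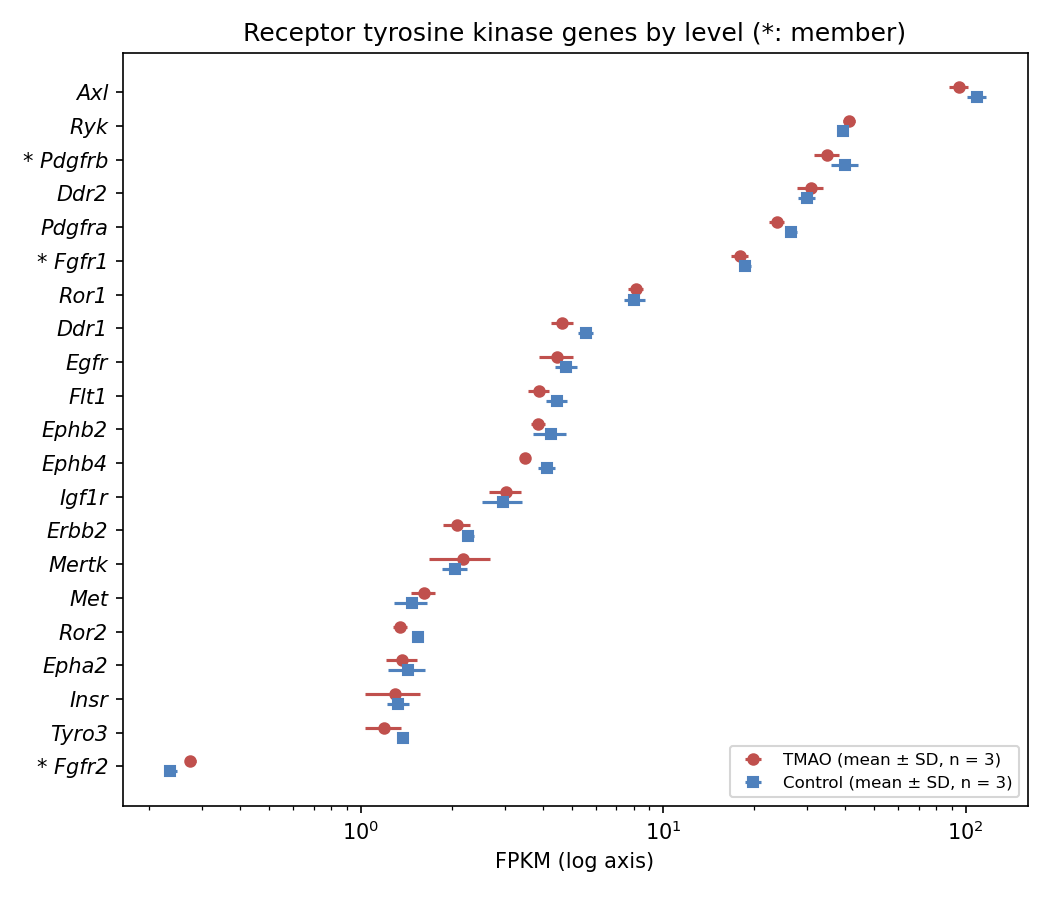
Mean FPKM ± SD (x axis, log scale) in TMAO and Control, n = 3 each, of the receptor tyrosine kinase genes with a mean of at least 1 FPKM, and of Fgfr2, ordered by level; asterisks mark members. Pdgfrb at 34.9 FPKM in TMAO and 40.06 FPKM in Control and Fgfr1 at 17.9 FPKM in TMAO and 18.7 FPKM in Control lie near the top, and Fgfr2 lies at 0.274 FPKM in TMAO and 0.235 FPKM in Control.

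The genes that surround these ligands and receptors were described from further lists, none of which had a gene past the threshold in either direction. Of 9 partners of PDGF signalling (the alpha receptor, activating proteases and co-receptors) 7 were tested, 6 of them below 0, with a median log2 fold change of -0.14. Among all tested genes 39.99% lay below 0. The proprotein convertase gene Furin had 5.85, 5.66 and 5.18 FPKM in TMAO 1 to 3 and 6.26, 7.01 and 6.21 FPKM in Control 1 to 3 (-0.19, limma adjusted p = 0.303). Plat, which codes for the tissue plasminogen activator that cleaves latent PDGF-C, had 5.29 to 5.68 FPKM in TMAO and 5.85 to 6.54 FPKM in Control (-0.15, limma adjusted p = 0.376). Both genes had all TMAO libraries below all Control libraries, which made 2 of the 7 tested partners, against 6.23% of all tested genes. All TMAO libraries were above all Control libraries for 0 of the 7, against 12.4% of all tested genes. Of the 19 other FGF ligand genes 11 were listed and 3 tested, all of them under 2 FPKM in every library. Fgf14, an intracellular FGF homologous factor gene, had 1.94, 1.30 and 1.63 FPKM in TMAO 1 to 3 and 1.31, 1.19 and 1.02 FPKM in Control 1 to 3 (0.27, limma adjusted p = 0.317). Fgf1, the acidic FGF gene, was the one of the 3 tested genes with all TMAO libraries above all Control libraries (0.18 on the log2 scale, limma adjusted p = 0.532, and 0.063 without Control 3). Fgf18 gave -0.17 (limma adjusted p = 0.597), with -0.28 without Control 2 and -0.083 without TMAO 3.

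The other FGF receptor and co-receptor genes were low. Fgfr3 averaged 0.0173 FPKM in TMAO and 0.0441 FPKM in Control, and the Klotho gene Kl had 1 read, in TMAO 3. Fgfr4 had 0 reads in TMAO and 3 reads in Control, all in Control 2. Fgfrl1, a receptor gene without a kinase domain, and the carrier gene Fgfbp3 were tested and gave -0.16 and -0.11 on the log2 scale (limma adjusted p = 0.584 for Fgfrl1 and 0.847 for Fgfbp3). Fgfrl1 gave -0.042 without TMAO 1, and Fgfbp3 had a positive value, 0.085, without Control 2.

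FGF2, FGF7 and FGF10 bind their receptors with heparan sulfate as a cofactor. Of 20 genes for heparan sulfate core proteins and enzymes 19 were tested, 14 below and 5 above 0, with a median log2 fold change of -0.10. Below 0 lay 39.99% of all tested genes. The syndecan gene Sdc4 had 49.9, 42.9 and 48.9 FPKM in TMAO 1 to 3 and 50.4, 58.2 and 58.3 FPKM in Control 1 to 3 (-0.23, limma adjusted p = 0.233). The heparan sulfate polymerase gene Ext1 and the sulfatase gene Sulf2 gave -0.17 each on the log2 scale (limma adjusted p = 0.261 for Ext1 and 0.272 for Sulf2). Sdc4, Ext1 and Sulf2 were among the 4 of the 19 tested genes with all TMAO libraries below all Control libraries, against 6.23% of all tested genes, and 1 of the 19 had them all above, against 12.4%.

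Of 25 adaptor and signal transducer genes 24 were tested, 14 below and 10 above 0, with a median log2 fold change of -0.019. Among those with the smallest p-values were Rasa1, which codes for a GTPase-activating protein of Ras (-0.19, limma adjusted p = 0.245), and the adaptor gene Nck1 (-0.11, limma adjusted p = 0.46). The feedback regulators and targets of FGF and ERK signalling had a median log2 fold change of 0.14 over 13 tested genes of 14, with 10 above and 3 below 0 and 4 of the 13 with all TMAO libraries above all Control libraries. Among all tested genes 39.99% lay below 0 and 12.4% had all TMAO libraries above all Control libraries. Dusp6, the gene of a phosphatase of ERK, had 26.6, 24.0 and 24.9 FPKM in TMAO 1 to 3 and 19.3, 21.7 and 19.97 FPKM in Control 1 to 3 (0.29, limma adjusted p = 0.0891), and it passed with voom on recovered reads (adjusted p = 0.0271, against 0.0767 to 0.428 under the other alternatives). The phosphatase gene Dusp5 had 10.7, 9.43 and 10.8 FPKM in TMAO 1 to 3 and 7.76, 8.78 and 7.84 FPKM in Control 1 to 3 (0.31, limma adjusted p = 0.131). The ETS factor gene Etv4 had 4.33, 4.81 and 4.17 FPKM in TMAO 1 to 3 and 3.11, 3.51 and 3.66 FPKM in Control 1 to 3 (0.30, limma adjusted p = 0.165). In these lists, as in the members, all values are RNA levels, and no protein or phosphorylation was measured.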

How the data were processed

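RNA was sequenced from vascular smooth muscle cells of mouse aorta, 3 TMAO and 3 Control libraries, grouped by their titles. Per the labels' protocols, RNA was extracted with Trizol and libraries made with a stranded mRNA kit. The submitters' processing notes list Trimmomatic, HISAT2, Cufflinks and HTSeq, without versions, and mm10. The authors deposited 1 table of FPKM values per library, and 1 header spells the unit PKM. Neither annotation nor strand setting is given in the sources used here.

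With exon lengths from GENCODE M21, the FPKM values of 25499 genes, 98.5% of those annotated, were whole reads to within 0.01 reads in all libraries, and their totals were 14991252 to 16806728. FPKM values are not counts, so limma 3.58.1 in R 4.3.3 (trended, robust) was run on log2(FPKM + 1) for genes reaching 1 FPKM in 3 or more libraries, with Benjamini-Hochberg adjustment and a threshold of 0.05. The code was tested on simulated data. Python 3.11.15 with pandas 2.3.3, scipy 1.17.1 and matplotlib 3.10.9 made tables, permutation tests and figures. No library repeated another of its own group in a chi-square comparison of reads over 12517 genes, and libraries of different groups were not compared.

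The members, gene lists and tests were chosen with earlier results of these data known. All members were named, and from each list the 3 tested genes with the smallest p, genes overlapping a member, and kinases ranked next to a member receptor. Genes outside this rule (Malat1 and the marker genes, and Fgfr3, Fgfr4 and Kl) were named after their values were seen, and 1 gene that the rule names is not reported here. The alternatives were 2 other scalings, 3 other filters, voom on recovered reads, a replicate block, a pseudocount of 0.1, a non-robust fit and leaving out each library.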

Additional observations from a re-analysis of the deposited data

How the results depend on the processing

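None of the 8 tested members was called under the 15 alternatives, and limma gave 2 to 5 of them an unadjusted p under 0.05. Pdgfd, Pdgfrb, Fgf7, Fgf10, Fgfr1 and Pdgfc kept their direction in all 15. Leaving out 1 library in turn gave log2 fold changes of -0.061 to 0.037 for Fgf2, -0.0048 to 0.20 for Pdgfa and -0.26 to 0.085 for Fgfbp3. Of the 27 genes followed through the alternatives (the 8 tested members and 19 of the list genes), only these changed sign. Genes that overlap a member, and neighbouring kinases other than Pdgfra, were not followed in this way. The total number of genes called was 20 in the reported fit with limma, 0 with no filter (1999 at an unadjusted p under 0.05), 97 with voom on recovered reads, and 11 to 56 with 1 library left out (11 without Control 3, 12 without TMAO 1, 56 without TMAO 2); the cause was not tested. Quantile normalization called 7 higher and 18 lower genes and median-ratio factors 9 higher and 18 lower, against 8 higher and 12 lower.

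Same-numbered libraries did not deviate together (correlations of -0.0858, -0.104 and 0.0555), so the numbers were not taken as pairs. With the replicate block 22 genes (12 higher, 10 lower) and 0 members were called. Pdgfb, with at most 3 reads, and Fgfr2, with at most 47, are limited by depth.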
